A study of Mus musculus with 8 samples.

Results

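The genes described here are the Wnt ligands, the Frizzled receptors and the secreted Wnt antagonists of the mouse lung, together with R-spondins, their Lgr receptors and genes that Wnt signaling is known to induce. They were taken by name: every gene whose symbol starts with Wnt, Fzd, Sfrp or Dkk and a digit, plus Axin2, Lef1, Lgr4, Lgr5, Lgr6, Wif1, Rspo1, Rspo2, Rspo3 and Notum. This gave 47 of the 25965 genes with deposited values, of which 19 are Wnt ligands, 10 are Frizzled receptors, 4 are Sfrp genes and 4 are Dkk genes. Total lung RNA was sequenced from Wfdc2+/+ mice and from Wfdc2GFP/GFP mice at E18.5 (E, embryonic day), just before birth, and at P1.5 (P, postnatal day), with 2 libraries in each of the 4 groups. Wfdc2 encodes a secreted protein of the whey acidic protein family, made by epithelial cells. In Wfdc2GFP/GFP mice both alleles carry an IRES-EGFP cassette in place of a part of the first exon and the whole of the second, so the gene is lost in every cell. The line came from TT2 embryonic stem cells aggregated with ICR morulae, and the neomycin cassette was removed by a cross with CAG-Cre mice. The libraries are numbered replicate 1 and replicate 2 in each group. The paper calls the Wfdc2+/+ samples littermate controls, without saying which libraries share a litter. Neither the source of each library nor its sequencer (HiSeq2500 or GAIIx) is given, so the tests measure the spread between these libraries.

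Wnt ligands are lipid-modified secreted proteins that bind Frizzled receptors and the co-receptors Lrp5 and Lrp6. In the canonical branch this stabilizes β-catenin, which enters the nucleus and works with TCF and LEF factors, while other ligands such as Wnt5a and Wnt11 act mainly through branches that do not need β-catenin. Sfrp proteins and Wif1 bind the ligands, Dkk1, Dkk2 and Dkk4 bind the co-receptors, and R-spondins acting through Lgr receptors keep Frizzled receptors on the cell surface. In the developing lung, Wnt2 and Wnt2b from mesenchyme and Wnt7b from epithelium are known to be needed for lung specification and growth.

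Before the values, upstream sequences are shown of 5 of the 6 genes that passed the test between the stages, since the stage comparison turns on these. The window of Wnt4, whose RefSeq start lies inside the gene span of GENCODE, is described and not printed. Each is the 250 bases before the RefSeq transcription start (GRCm38.p6), 5′ to 3′ on the strand of the gene, with every GC box (GGGCGG on either strand, overlaps counted) in capitals.
Fzd10, chr5:128600856-128601105, plus strand: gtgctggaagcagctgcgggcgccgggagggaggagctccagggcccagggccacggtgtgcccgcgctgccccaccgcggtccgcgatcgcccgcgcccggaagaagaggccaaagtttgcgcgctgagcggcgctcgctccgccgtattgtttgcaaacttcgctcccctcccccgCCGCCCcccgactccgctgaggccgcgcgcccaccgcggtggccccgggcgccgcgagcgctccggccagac
Fzd7, chr1:59481897-59482146, plus strand: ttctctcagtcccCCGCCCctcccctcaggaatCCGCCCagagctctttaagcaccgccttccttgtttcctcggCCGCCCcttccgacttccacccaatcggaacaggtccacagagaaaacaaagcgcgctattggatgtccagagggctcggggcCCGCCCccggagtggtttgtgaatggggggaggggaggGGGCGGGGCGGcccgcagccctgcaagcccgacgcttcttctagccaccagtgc
Fzd4, chr7:89404116-89404365, plus strand: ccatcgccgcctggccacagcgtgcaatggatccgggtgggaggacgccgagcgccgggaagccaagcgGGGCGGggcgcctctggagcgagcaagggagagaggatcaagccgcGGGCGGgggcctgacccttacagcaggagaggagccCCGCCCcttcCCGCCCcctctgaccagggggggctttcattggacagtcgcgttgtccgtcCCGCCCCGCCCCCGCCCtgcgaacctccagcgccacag
Wnt6, chr1:74771642-74771891, plus strand: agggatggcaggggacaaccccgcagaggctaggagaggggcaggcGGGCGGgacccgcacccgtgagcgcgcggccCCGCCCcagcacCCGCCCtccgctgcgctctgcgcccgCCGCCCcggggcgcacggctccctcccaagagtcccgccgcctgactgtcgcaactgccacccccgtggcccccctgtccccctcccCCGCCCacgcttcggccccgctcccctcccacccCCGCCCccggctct
Rspo1, chr4:124986180-124986429, plus strand: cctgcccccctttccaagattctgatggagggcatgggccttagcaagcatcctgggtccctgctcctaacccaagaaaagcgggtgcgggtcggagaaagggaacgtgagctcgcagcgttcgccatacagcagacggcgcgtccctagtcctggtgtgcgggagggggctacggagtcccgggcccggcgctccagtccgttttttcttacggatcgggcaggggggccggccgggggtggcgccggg

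A GC box is a binding motif of Sp1 and related factors. It occurred 8 times upstream of Wnt4, 7 times upstream of Fzd4, 6 times upstream of Fzd7, 6 times upstream of Wnt6, once upstream of Fzd10 and not in the Rspo1 window. The TCF/LEF motif, searched as CTTTGAT or CTTTGAA on either strand, was in none of these 6 windows, and neither was TATAAA. RefSeq gave 37 such windows for 31 of the 47 genes, and 26 of them (70.3%) held a GC box, against 32.7% of all 32851 windows. The TCF/LEF motif was in 3 of the 37 (8.11%), those of Dkk1, Wnt11 and Wnt5b, against 7.48% of all windows. The GC content of the 6 windows ran from 65.2% to 85.2%, where the median of all windows was 52.4%. These counts describe the letters of the windows and bear on no factor. The genes with lower and with higher values after birth both include windows with 6 or more GC boxes.

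Library totals ran from 19457647 to 37209333 reads, and Wfdc2 had 8038 to 32845 reads in the Wfdc2+/+ libraries and 0 to 12 in the Wfdc2GFP/GFP libraries. The 5 alveolar type II markers summed to 8075 to 65229 RPM (reads scaled to the library total) and none was at 0 in any library. Xist had 4121 to 90980 reads in each replicate 1 and 1 to 13 in each replicate 2, and Ddx3y 0 to 3 and 972 to 2175, so sex and replicate number cannot be told apart. Some libraries stood apart from their pairs. E18.5 Wfdc2GFP/GFP replicate 1 had 1450 RPM summed over 6 proliferation markers, against 422 to 650 RPM in the other E18.5 libraries, and 178 RPM over 4 airway markers, against 883 to 1314 RPM in those same libraries. P1.5 Wfdc2+/+ replicate 1 had 1059 RPM over 6 mesenchymal markers where replicate 2 had 6336 RPM. The P1.5 Wfdc2GFP/GFP libraries had 1320 and 1895 RPM, so replicate 2 was the one unlike the other P1.5 libraries. P1.5 Wfdc2+/+ replicate 2 held 96.0 RPM over 4 liver markers and 104 RPM over 2 oesophagus markers, against at most 8.06 and 5.40 RPM elsewhere. Results are also given without E18.5 Wfdc2GFP/GFP replicate 1 and P1.5 Wfdc2+/+ replicate 1, a choice made after seeing the data. These are called both libraries that stand apart below, which is only a label for the set left out. In the mesenchymal markers P1.5 Wfdc2+/+ replicate 1 stood apart from its pair, not from the P1.5 Wfdc2GFP/GFP libraries. That fit keeps P1.5 Wfdc2+/+ replicate 2 with its liver and oesophagus reads, so it is not a set freed of unlike libraries.

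Genes with a mean of at least 10 reads per library were tested, which kept 35 of the 47 and 15783 of all 25965 genes. The test was limma on the log2 RPKM (log2 of RPM per kilobase of gene span), with Benjamini-Hochberg adjustment over all 15783 genes. A gene that passed this filter only through a group where it was high had to differ between groups, which bears on Wnt6 (mean reads of 7.75 at E18.5 and 20 at P1.5), on Sfrp4 (6.5 and 15) and, among the other pathway genes described at the end, on Sost (40.3 and 5). Between the genotypes at P1.5, Wnt6 had mean reads of 30 in Wfdc2+/+ and 10 in Wfdc2GFP/GFP, and Sfrp4 had 5.5 and 24.5. The tests of these 3 genes between stages or genotypes are given as values and support nothing about the groups. With a filter of 30 reads, which leaves out all 3, 5 of 33 genes passed between the stages, against 15.9% of all genes. The median of all genes tested was lower at P1.5 than at E18.5 by a log2 difference of −0.41, and median centring moved it to 0.08, so values after centring are given beside those as deposited. In bulk RNA, fewer cells of a type and less RNA per cell cannot be told apart.

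Levels were compared between genes per exonic length, as RPM per exonic kilobase, averaged over the 8 libraries. Dkk3, a divergent Dkk family member, stood highest with 24.7, followed by Wnt2 with 24.5, Fzd2 with 19.2, Rspo1 with 13.6, the antagonist Sfrp2 with 13.3 and Fzd1 with 12.9. Fzd7 (9.61), Fzd6 (7.6) and the feedback inhibitor Axin2 (6.85) came next. The ranges of the 8 libraries overlapped between neighbours in this order, for example 13.4 to 44.9 for Dkk3, 6.09 to 35.6 for Wnt2 and 14.1 to 25.8 for Fzd2. At the other end, Lgr5, a receptor for R-spondins that marks stem cells of several epithelia, had 0.128, Wnt6 had 0.265 and Sfrp4 had 0.101. The order depends on the length used: per kilobase of gene span Fzd2 ranked 1, Dkk3 8 and Wnt2 10. The plot of levels by library shows one Wnt4 value far above the other 7 and wide spreads within P1.5 Wfdc2+/+ for many genes.

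**Figure D1:**
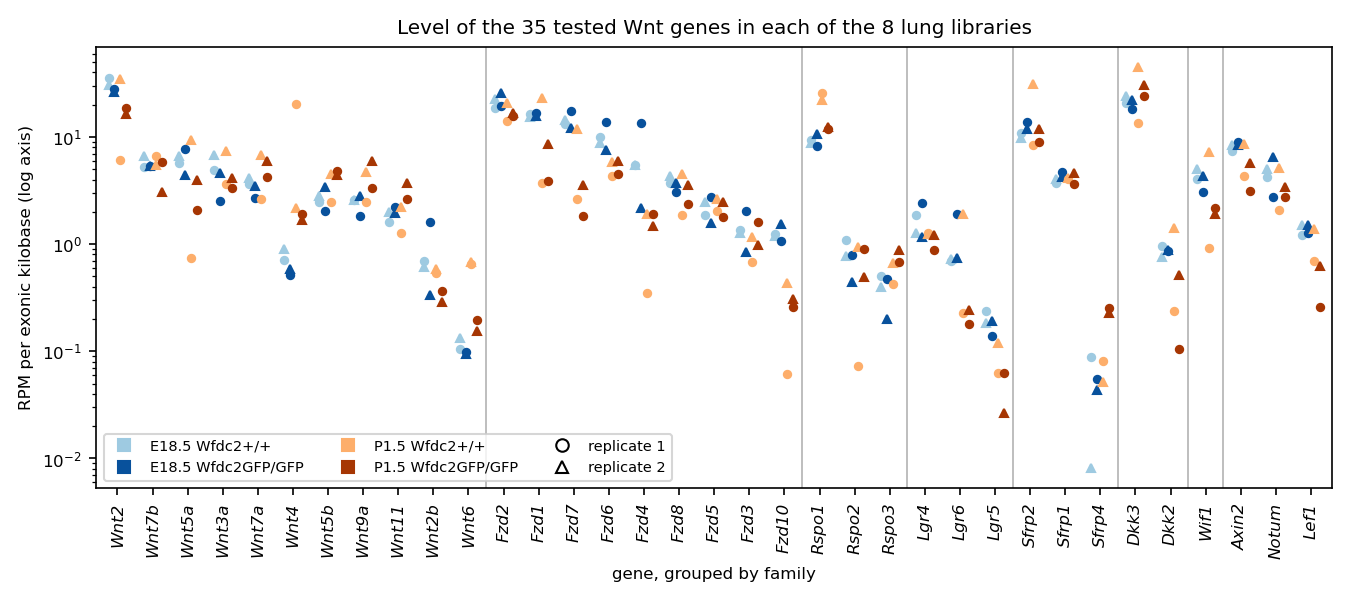
RPM per exonic kilobase (log axis) of the 35 tested genes in each library, grouped by family (Wnt, Fzd, Rspo, Lgr, Sfrp, Dkk, Wif1 and the induced genes Axin2, Notum and Lef1). Colours mark the 4 groups, circles replicate 1 and triangles replicate 2; Wnt4 in P1.5 Wfdc2+/+ replicate 1 stood at 20.4, far above its other libraries.

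The comparison of the stages asks which of these genes differ before and after birth. Averaged over the genotypes, 6 of 35 genes (17.1%) passed an adjusted p under 0.05, against 13.1% of all genes tested. Fzd10, Fzd7 and Fzd4 fell (8.57%, against 8.1% of all genes lower at P1.5) and Wnt4, Wnt6 and Rspo1 were called higher (8.57%, against 5.04% higher at P1.5). The call of Wnt6 is tied to the read filter and supports nothing about the stages. The median log2 difference of the 35 genes was −0.36, beside −0.41 over all genes. With values centred, 5 of 35 passed (all genes, 12.1%), which were Fzd10, Fzd7, Wnt6, Rspo1 and Wnt9a, and without both libraries that stand apart 4 passed (all genes, 9.23%), which were Fzd10, Fzd4, Wnt4 and Wnt6. Voom on the recovered reads passed 7 (all genes, 21.8%), without Wnt6 and with Fzd6 and Lgr5. With the replicate number, which coincides with sex, as a block, Fzd10 (limma adjusted p = 0.0381) and Fzd7 (0.046) passed (all genes, 4.97%), and Wnt4 (0.0541), Wnt6 (0.0598), Rspo1 (0.0628) and Fzd4 (0.0692) did not. With the block set within each stage all 6 passed, among 10 of the 35 (all genes, 34.3%). Over all genes, 795 passed as higher and 1278 as lower as deposited, and 1320 and 597 after centring. The count moved with single libraries, and so did that of all genes: with each left out in turn it was 17 without P1.5 Wfdc2+/+ replicate 2 (all genes, 47.8%), 7 without E18.5 Wfdc2GFP/GFP replicate 2 (22.8%), 3 without P1.5 Wfdc2+/+ replicate 1 (5.06%) and 0 without any one of the other 5. Within single genotypes fewer passed. In Wfdc2+/+ none of the 35 passed in limma or in voom on the recovered reads, where 0.272% of all genes did in limma. At an unadjusted p under 0.05 there were 5 of the 35 in limma and 6 in voom, against 12.2% and 12.9% of all genes. In Wfdc2GFP/GFP 1 passed in both tools, which was Fzd7, while after centring Fzd7 did not and Wnt9a and Wnt11 passed as higher, as did 6.06% of all genes. Here 10% of all genes passed as deposited. The difference between these changes was tested itself and none of the 35 passed in either tool, and 0.0% of all genes did in limma. At an unadjusted p under 0.05 there were 0 of the 35 in either tool, against 10.2% of all genes in limma and 10.3% in voom.

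**Figure D2:**
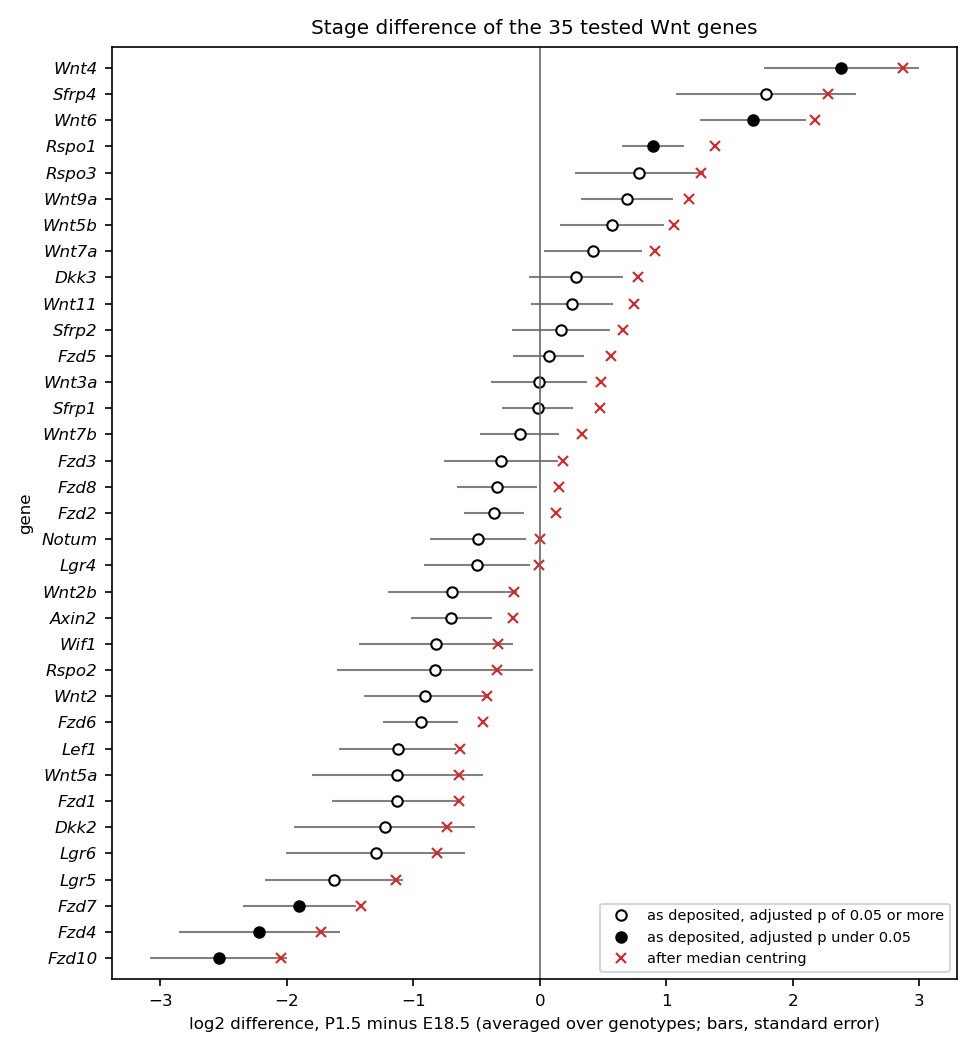
Log2 difference between P1.5 and E18.5, averaged over genotypes, for the 35 tested genes, with standard errors as bars. Filled circles passed an adjusted p of 0.05, open circles did not, and red crosses are the values after median centring; the values run from −2.54 for Fzd10 to 2.38 for Wnt4.

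Of the 9 Frizzled receptors tested, 3 were called lower at P1.5 as deposited (Fzd10, Fzd7 and Fzd4), where 8.1% of all genes were. After centring Fzd10 and Fzd7 were called lower and Fzd4 was not, where 3.78% of all genes were. The share of the family was not tested. Frizzled proteins are the membrane receptors that bind Wnt ligands. Fzd10 (chromosome 5, 128601106 to 128604093, mm10) had log2 RPKM of 0.30 and 0.27 in E18.5 Wfdc2+/+, 0.09 and 0.62 in E18.5 Wfdc2GFP/GFP, −4.02 and −1.22 in P1.5 Wfdc2+/+ and −1.94 and −1.70 in P1.5 Wfdc2GFP/GFP. All 4 P1.5 libraries lay below all 4 E18.5 libraries, and the reads behind them were 127, 112, 118 and 134 at E18.5 and 4, 25, 18 and 27 at P1.5. Its mean was 0.32 ± 0.22 (SD, n = 4) at E18.5 and −2.22 ± 1.24 (SD, n = 4) at P1.5. The log2 difference was −2.54 (standard error 0.54, limma adjusted p = 0.0304), a 5.8-fold lower level, and −2.05 after centring.

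Fzd7 (chromosome 1, 59482147 to 59486947), a receptor of the canonical branch in many progenitor cells, had log2 RPKM of 3.63 and 3.75 in E18.5 Wfdc2+/+, 4.04 and 3.51 in E18.5 Wfdc2GFP/GFP, 1.31 and 3.49 in P1.5 Wfdc2+/+ and 0.77 and 1.76 in P1.5 Wfdc2GFP/GFP. The stages did not overlap, but P1.5 Wfdc2+/+ replicate 2 lay just under the lowest E18.5 value while the other 3 P1.5 libraries were far below. The mean was 3.73 ± 0.23 (SD, n = 4) at E18.5 and 1.83 ± 1.17 (SD, n = 4) at P1.5. The log2 difference was −1.90 (standard error 0.45, limma adjusted p = 0.0364), a 3.73-fold lower level, and −1.41 after centring. Without both libraries that stand apart it was −1.22 (limma adjusted p = 0.0576). In Wfdc2GFP/GFP alone it was −2.51 (standard error 0.63, limma adjusted p = 0.0441), and in Wfdc2+/+ −1.29 (standard error 0.63, limma adjusted p = 0.431). The difference between those changes was −1.22 (standard error 0.90, limma adjusted p = 0.693), so a dependence on genotype was not shown.

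Fzd4 (chromosome 7, 89404366 to 89410110), known as the receptor for Norrin in vessels, had log2 RPKM of 1.81 and 1.81 in E18.5 Wfdc2+/+, 3.12 and 0.47 in E18.5 Wfdc2GFP/GFP, −2.16 and 0.29 in P1.5 Wfdc2+/+ and 0.28 and −0.09 in P1.5 Wfdc2GFP/GFP. The stages did not overlap, and the highest value of all was in E18.5 Wfdc2GFP/GFP replicate 1, with 1858 reads against 232 in its pair. The lowest was in P1.5 Wfdc2+/+ replicate 1 with 28 reads. Its mean was 1.8 ± 1.08 (SD, n = 4) at E18.5 and −0.42 ± 1.17 (SD, n = 4) at P1.5, and the log2 difference was −2.22 (standard error 0.64, limma adjusted p = 0.04995), a 4.66-fold lower level. Without both libraries that stand apart the difference was −0.94 (limma adjusted p = 0.0415), and after centring −1.73 (limma adjusted p = 0.0736). It did not pass with the replicate block either (limma adjusted p = 0.0692).

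**Figure D3:**
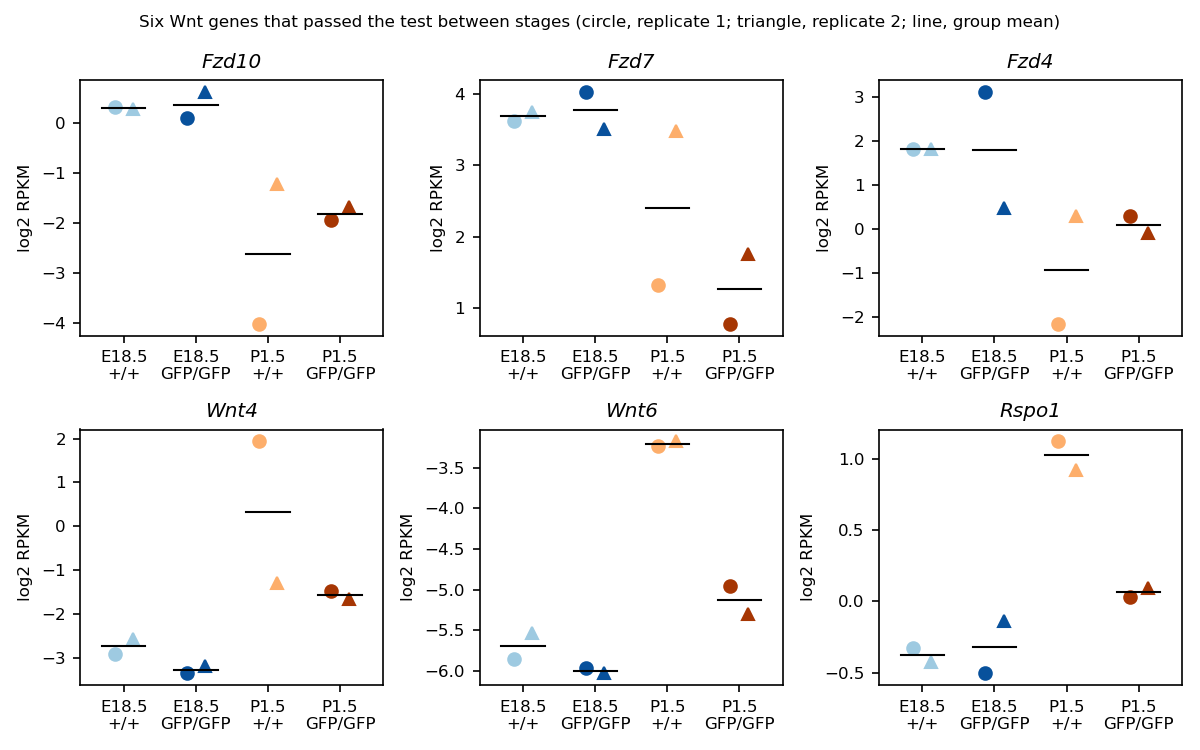
Log2 RPKM of the 6 genes that passed the test between the stages, in each library (circles, replicate 1; triangles, replicate 2) with the mean of each group as a line. In each panel the 4 P1.5 values lie on one side of the 4 E18.5 values; the spread within a group is widest in P1.5 Wfdc2+/+ for Fzd10, Fzd7 and Wnt4 and in E18.5 Wfdc2GFP/GFP for Fzd4.

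For each of these 6 genes the exact two-sided permutation test of 4 P1.5 against 4 E18.5 libraries gave p = 0.0286, the smallest it can give. Fzd6 and Lgr5 had that p too, so 8 of 35 genes did not overlap between the stages. Of these, 5 were lower at P1.5 (Fzd6, Lgr5, Fzd4, Fzd10 and Fzd7) and 3 higher, where 14.6% of all genes lay apart as lower and 7.08% as higher. Wnt6, limited by the read filter, is among the 3. The exact test was computed for all 35 genes. Fzd6, linked to planar cell polarity, had log2 RPKM of 0.12 to 0.98 at E18.5 and −0.69 to −0.22 at P1.5, a difference of −0.94 (standard error 0.29, limma adjusted p = 0.0585).

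The other Frizzled receptors did not pass. Fzd1 ran from 3.87 to 4.01 at E18.5 and 1.84 to 4.45 at P1.5, and 2 P1.5 libraries with values of 1.84 and 1.91 stood far below the 4.45 of P1.5 Wfdc2+/+ replicate 2. Fzd2, the receptor gene with the highest level, kept a narrow range of 4.22 to 4.69 at E18.5 and 3.82 to 4.38 at P1.5 and differed by −0.36 (standard error 0.24, limma adjusted p = 0.267). Fzd8 ran from 1.62 to 2.11 at E18.5 and 0.92 to 2.16 at P1.5, Fzd5 from 0.59 to 1.39 at E18.5 and 0.77 to 1.36 at P1.5 and Fzd3 from −4.11 to −2.85 at E18.5 and −4.40 to −3.18 at P1.5. As deposited, 8 of the 9 differences were below 0, and 5 of 9 after centring. Most genes of the lung were lower too: 32.2% of all genes were above 0 as deposited and 53.9% after centring. The 6 mesenchymal markers summed to 3890 to 5861 RPM at E18.5, and at P1.5 to 1059, 6336, 1320 and 1895 RPM. Fzd7 and Fzd1 were highest among the P1.5 libraries in the one with 6336 RPM. The part of mesenchymal cells in these results was not tested.

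Shares within a family do not depend on the scaling between libraries. Of the summed Frizzled level, Fzd2 took 21.7% to 36.3% at E18.5 and 28.8% to 47.2% at P1.5. Fzd7 took 17% to 19.3% at E18.5 and 5.33% to 16.5% at P1.5, without overlap, and Fzd10 1.18% to 2.16% at E18.5 and 0.206% to 0.764% at P1.5, also without overlap. Fzd5 took 2.2% to 3.26% at E18.5 and 3.69% to 6.82% at P1.5 and Fzd8 3.41% to 5.72% at E18.5 and 6.2% to 8.15% at P1.5, both higher at P1.5 without overlap. So the Frizzled genes did not move in one proportion: Fzd7 and Fzd10 held smaller shares after birth and Fzd5 and Fzd8 larger ones. The levels of Fzd5 and Fzd8 themselves overlapped between the stages. Their mean log2 RPKM was 1.02 at E18.5 and 1.09 at P1.5 for Fzd5, and 1.88 and 1.54 for Fzd8. The share of Fzd4 overlapped between the stages, with means of 8.24% at E18.5 and 3.18% at P1.5. How often shares of other genes lie apart between the stages was not tested. The summed Frizzled level was 71.1 to 90.1 RPM per exonic kilobase at E18.5 and 29.9, 72.1, 34.0 and 44.0 in the P1.5 libraries.

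**Figure D4:**
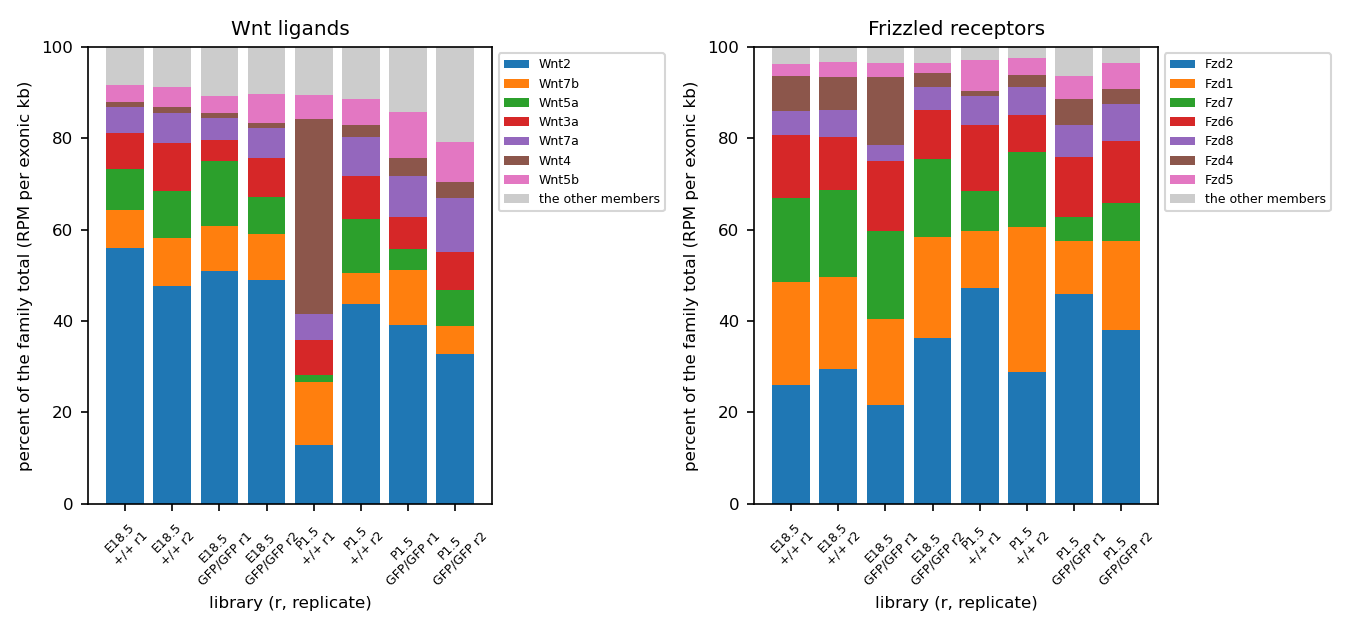
Percent of the summed level (RPM per exonic kilobase) of the Wnt ligands (left) and the Frizzled receptors (right) taken by each gene in each library, with the 7 largest genes named. Wnt2 takes the largest part in 7 libraries and Wnt4 in P1.5 Wfdc2+/+ replicate 1 (42.8%); Fzd7 takes 17% to 19.3% at E18.5.

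Among the 11 Wnt ligands tested, Wnt4 rose after birth, and Wnt6 also passed but had reached the read filter only through P1.5 Wfdc2+/+. Wnt4 (chromosome 4, 137277489 to 137299726), a ligand needed for kidney and gonad development, had log2 RPKM of −2.91 and −2.57 in E18.5 Wfdc2+/+, −3.35 and −3.18 in E18.5 Wfdc2GFP/GFP, 1.94 and −1.28 in P1.5 Wfdc2+/+ and −1.48 and −1.66 in P1.5 Wfdc2GFP/GFP. Its reads were 102 and 117 in E18.5 Wfdc2+/+, 81 and 72 in E18.5 Wfdc2GFP/GFP, 1856 and 178 in P1.5 Wfdc2+/+ and 185 and 206 in P1.5 Wfdc2GFP/GFP. P1.5 Wfdc2+/+ replicate 1 stood far above the other 7 libraries, yet all 4 P1.5 libraries lay above all 4 E18.5 libraries. The mean was −3.00 ± 0.34 (SD, n = 4) at E18.5 and −0.62 ± 1.71 (SD, n = 4) at P1.5, and the log2 difference was 2.38 (standard error 0.61, limma adjusted p = 0.0407), a 5.21-fold higher level. Without both libraries that stand apart it was 1.53 (limma adjusted p = 0.0305), and after centring 2.87 (limma adjusted p = 0.0514). The call was lost with the replicate number as a block (limma adjusted p = 0.0541).

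Wnt6 (chromosome 1, 74771892 to 74785319), an epithelial ligand of several developing organs, had few reads: 8 and 9 in E18.5 Wfdc2+/+, 8 and 6 in E18.5 Wfdc2GFP/GFP, 31 and 29 in P1.5 Wfdc2+/+ and 10 and 10 in P1.5 Wfdc2GFP/GFP. As log2 RPKM these were −5.85 and −5.54 in E18.5 Wfdc2+/+, −5.96 and −6.03 in E18.5 Wfdc2GFP/GFP, −3.23 and −3.17 in P1.5 Wfdc2+/+ and −4.96 and −5.30 in P1.5 Wfdc2GFP/GFP. Both P1.5 Wfdc2+/+ libraries were well above the others, and both P1.5 Wfdc2GFP/GFP libraries lay between them and the E18.5 libraries. The mean was −5.85 ± 0.22 (SD, n = 4) at E18.5 and −4.17 ± 1.12 (SD, n = 4) at P1.5, and the log2 difference was 1.68 (standard error 0.42, limma adjusted p = 0.0388), a 3.21-fold higher level, and 2.17 after centring. Wnt6 reached the read filter only through P1.5 Wfdc2+/+, so these values support nothing about the stages. It did not pass with the replicate block (limma adjusted p = 0.0598). An antisense gene, Gm29539, overlaps Wnt6. The libraries were made with a directional kit, but the sources do not state that the counting used strand, so reads of such partners cannot be told apart. This holds for 14 of the 35 genes.

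Wnt2, the mesenchymal ligand with the highest level per exonic kilobase (per kilobase of gene span Wnt5a was higher, with a mean RPKM of 1.75 against 1.33), had log2 RPKM of 0.95 and 0.72 in E18.5 Wfdc2+/+, 0.60 and 0.51 in E18.5 Wfdc2GFP/GFP, −1.60 and 0.90 in P1.5 Wfdc2+/+ and 0.01 and −0.18 in P1.5 Wfdc2GFP/GFP. P1.5 Wfdc2+/+ replicate 1 was lowest and replicate 2 of the same group lay within the E18.5 range, and the difference of −0.91 (standard error 0.48, limma adjusted p = 0.176) did not pass. Its share of the summed Wnt level was 47.7% to 56.1% at E18.5 and 12.8% to 43.7% at P1.5, without overlap, and 32.7% to 43.7% in the P1.5 libraries other than Wfdc2+/+ replicate 1. Per kilobase of gene span its mean share at E18.5 was 27.2% in place of 51.0%. The share of Wnt4 was 0.95% to 1.4% at E18.5 and 2.76% to 42.8% at P1.5. Wnt5a, the main ligand of the branch without β-catenin, ran from 0.59 to 1.43 at E18.5 and −1.98 to 1.68 at P1.5, a difference of −1.13 (standard error 0.67, limma adjusted p = 0.227) that was −0.003 without both libraries that stand apart.

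The epithelial ligand Wnt7b ran from −0.92 to −0.57 at E18.5 and −1.67 to −0.58 at P1.5, and Wnt3a, a canonical ligand, from −2.62 to −1.20 at E18.5 and −2.22 to −1.07 at P1.5. Wnt9a differed by 0.69 (standard error 0.36, limma adjusted p = 0.179) as deposited and by 1.18 after centring (limma adjusted p = 0.0431). Wnt7a ran from −2.48 to −1.84 at E18.5 and −2.50 to −1.14 at P1.5, Wnt5b from −4.36 to −3.63 at E18.5 and −4.09 to −3.12 at P1.5, Wnt11 from −1.60 to −1.13 at E18.5 and −1.95 to −0.38 at P1.5 and Wnt2b from −3.66 to −1.40 at E18.5 and −3.86 to −2.87 at P1.5. The highest Wnt2b value was in E18.5 Wfdc2GFP/GFP replicate 1, the library with the most proliferation marker reads. As deposited 6 of the 11 ligand differences were above 0 and 5 below, and after centring 8 and 3. Over all genes 32.2% were above 0 as deposited and 53.9% after centring.

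Rspo1 (chromosome 4, 124986430 to 125009099), the R-spondin with the highest level, rose after birth. Its log2 RPKM was −0.33 and −0.43 in E18.5 Wfdc2+/+, −0.51 and −0.14 in E18.5 Wfdc2GFP/GFP, 1.12 and 0.92 in P1.5 Wfdc2+/+ and 0.03 and 0.10 in P1.5 Wfdc2GFP/GFP. All P1.5 libraries lay above all E18.5 libraries, and within P1.5 both Wfdc2GFP/GFP libraries lay below both Wfdc2+/+ libraries. The mean was −0.35 ± 0.16 (SD, n = 4) at E18.5 and 0.54 ± 0.56 (SD, n = 4) at P1.5, and the log2 difference was 0.89 (standard error 0.25, limma adjusted p = 0.0467), a 1.86-fold higher level. It was 1.38 after centring and 0.75 without both libraries that stand apart (limma adjusted p = 0.0534). With the replicate block Rspo1 did not pass (limma adjusted p = 0.0628). An antisense gene, Gm12930, overlaps Rspo1.

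The 4 mesothelial markers fixed for the check of cell types, Wt1, Msln, Upk3b and Lrrn4, summed to 517, 583, 292 and 679 RPM at E18.5 and 2045, 1069, 1230 and 1124 RPM at P1.5. None of the 4 markers was at 0, and the sum was highest in P1.5 Wfdc2+/+ replicate 1, where Wnt4 was highest. Msln made up most of it, with 7171 to 17095 reads at E18.5 and 15000 to 40352 at P1.5, while Wt1 had 116 to 602 and 139 to 293. Upk3b had 2455 to 3657 and 2565 to 5221 reads. Lrrn4 had 187 to 539 and 119 to 285, with 152 in P1.5 Wfdc2+/+ replicate 1, so the markers did not move together. These reads are not scaled to the library totals, which ran from 29246203 to 37209333 at E18.5 and from 19457647 to 29257003 at P1.5. The unscaled ranges thus understate most P1.5 levels beside those at E18.5, as for Upk3b. The part of mesothelial cells in the rise was not tested.

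Rspo2, which is needed for lung branching, had log2 RPKM of −4.74 and −5.25 in E18.5 Wfdc2+/+, −5.23 and −6.05 in E18.5 Wfdc2GFP/GFP, −8.67 and −4.97 in P1.5 Wfdc2+/+ and −5.03 and −5.91 in P1.5 Wfdc2GFP/GFP. The fewest reads were 8, in P1.5 Wfdc2+/+ replicate 1, the most were 193, in E18.5 Wfdc2+/+ replicate 1, and the stages overlapped. Rspo3, an endothelial and mesenchymal R-spondin, ran from −7.43 to −6.08 at E18.5 and −6.35 to −5.29 at P1.5, with 14 to 62 reads. Among the Lgr receptors, Lgr5 had read counts of 84 and 59 in E18.5 Wfdc2+/+, 53 and 57 in E18.5 Wfdc2GFP/GFP, 14 and 24 in P1.5 Wfdc2+/+ and 15 and 8 in P1.5 Wfdc2GFP/GFP. All 4 P1.5 libraries lay below all 4 E18.5 libraries, but the difference of −1.63 (standard error 0.55, limma adjusted p = 0.068) did not pass in limma. Voom on the recovered reads gave an adjusted p of 0.0468 for Lgr5. Lgr4, the most abundant of the 3 receptors, ran from −3.81 to −2.78 at E18.5 and −4.22 to −3.69 at P1.5.

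Lgr6, found in smooth muscle and epithelial progenitors, had read counts of 91 and 86 in E18.5 Wfdc2+/+, 271 and 82 in E18.5 Wfdc2GFP/GFP, 19 and 142 in P1.5 Wfdc2+/+ and 16 and 27 in P1.5 Wfdc2GFP/GFP. P1.5 Wfdc2+/+ replicate 2 had 142 reads where the other 3 P1.5 libraries had 16 to 27. As log2 RPKM these were −5.49 and −5.43 in E18.5 Wfdc2+/+, −4.03 and −5.41 in E18.5 Wfdc2GFP/GFP, −7.09 and −4.03 in P1.5 Wfdc2+/+ and −7.43 and −7.01 in P1.5 Wfdc2GFP/GFP. On this scale P1.5 Wfdc2+/+ replicate 2 and E18.5 Wfdc2GFP/GFP replicate 1 were the highest, side by side. The stage difference was −1.30 (standard error 0.71, limma adjusted p = 0.192), and −0.19 without both libraries that stand apart.

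The secreted antagonists did not pass. Sfrp2 ran from 1.39 to 1.88 at E18.5 and 1.16 to 3.08 at P1.5, with the highest value in P1.5 Wfdc2+/+ replicate 2. Sfrp1, which binds Wnt ligands through a Frizzled-like domain, had a narrow range of −1.24 to −0.88 at E18.5 and −1.27 to −0.91 at P1.5, a difference of −0.02 (standard error 0.28, limma adjusted p = 0.971). Sfrp4 had few reads, 12 and 1 in E18.5 Wfdc2+/+, 8 and 5 in E18.5 Wfdc2GFP/GFP, 7 and 4 in P1.5 Wfdc2+/+ and 23 and 26 in P1.5 Wfdc2GFP/GFP, which as log2 RPKM were −4.79 and −8.23 in E18.5 Wfdc2+/+, −5.49 and −5.82 in E18.5 Wfdc2GFP/GFP, −4.90 and −5.55 in P1.5 Wfdc2+/+ and −3.28 and −3.44 in P1.5 Wfdc2GFP/GFP. Its stage difference of 1.79 (standard error 0.71, limma adjusted p = 0.0977) was above 0 but the stages overlapped. Dkk3 ran from 0.52 to 0.90 at E18.5 and 0.07 to 1.81 at P1.5 and Dkk2, a ligand of the co-receptors, from −5.09 to −4.76 at E18.5 and −7.93 to −4.18 at P1.5 with 9 to 121 reads. Wif1, an inhibitor that binds the ligands, had read counts of 339 and 379 in E18.5 Wfdc2+/+, 276 and 306 in E18.5 Wfdc2GFP/GFP, 48 and 340 in P1.5 Wfdc2+/+ and 122 and 137 in P1.5 Wfdc2GFP/GFP. The pair of P1.5 Wfdc2+/+ libraries held its lowest and its second highest count. As log2 RPKM Wif1 ran from −3.17 to −2.46 at E18.5 and −4.92 to −1.93 at P1.5, so on this scale replicate 2 of that pair was the highest. The stage difference of Wif1 was −0.82 (standard error 0.61, limma adjusted p = 0.322).

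Genes that canonical Wnt signaling is known to induce did not pass either. Axin2, a feedback inhibitor widely used as a readout of the pathway, had log2 RPKM of 0.41 and 0.60 in E18.5 Wfdc2+/+, 0.69 and 0.60 in E18.5 Wfdc2GFP/GFP, −0.36 and 0.64 in P1.5 Wfdc2+/+ and −0.82 and 0.05 in P1.5 Wfdc2GFP/GFP. It was within the E18.5 range in P1.5 Wfdc2+/+ replicate 2 and below it in the other 3 P1.5 libraries, and the difference of −0.70 (standard error 0.32, limma adjusted p = 0.133) was −0.21 after centring. Lef1, a transcription factor of the pathway, had log2 RPKM of −3.40 and −3.10 in E18.5 Wfdc2+/+, −3.36 and −3.09 in E18.5 Wfdc2GFP/GFP, −4.22 and −3.21 in P1.5 Wfdc2+/+ and −5.64 and −4.38 in P1.5 Wfdc2GFP/GFP. Both P1.5 Wfdc2GFP/GFP libraries were the lowest of all, and the stage difference was −1.12 (standard error 0.46, limma adjusted p = 0.104). Notum, an enzyme that removes the lipid of Wnt ligands, ran from −0.14 to 1.09 at E18.5 and −0.57 to 0.73 at P1.5. All 3 differences were below 0 as deposited, where 32.2% of all genes were above 0.

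The comparison of the genotypes asks whether loss of Wfdc2 is accompanied by other levels of these genes. At P1.5 none of the 35 genes passed in limma or voom, where 0.019% of all genes did in limma. At an unadjusted p under 0.05 there were 2 of the 35 in limma (Wnt6 and Rspo1) and 3 in voom, against 11.3% and 9.99% of all genes. The place of Wnt6 among them supports nothing, since it reached the read filter only through P1.5 Wfdc2+/+. At E18.5 none passed in either tool and none had an unadjusted p under 0.05, where 0.00634% of all genes passed in limma, and 3.88% in limma and 3.98% in voom had an unadjusted p under 0.05. The smallest exact p of 2 against 2 libraries is 0.333, so no exact test is given. The median log2 difference of the 35 genes was −0.08 at P1.5 and −0.01 at E18.5, beside −0.17 and 0.12 over all genes.

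The largest P1.5 differences were those of Wnt6, Wnt4, Sfrp4 and Lgr6. Wnt6 reached the read filter only through P1.5 Wfdc2+/+ and Sfrp4 only through P1.5 Wfdc2GFP/GFP. Their differences are given as values and support nothing about the genotypes. For Wnt6 the difference, Wfdc2GFP/GFP minus Wfdc2+/+, was −1.92 (standard error 0.59, limma adjusted p = 0.326). Its libraries did not overlap, with 31 and 29 reads in Wfdc2+/+ and 10 and 10 in Wfdc2GFP/GFP. For Wnt4 the difference was −1.90 (standard error 0.86, limma adjusted p = 0.458), which rested on P1.5 Wfdc2+/+ replicate 1 and was −0.29 without both libraries that stand apart. The reads of Sfrp4 were 7 and 4 for the Wfdc2+/+ pair and 23 and 26 for the Wfdc2GFP/GFP pair, a difference of 1.87 (standard error 1.01, limma adjusted p = 0.53). Lgr6 differed by −1.66 (standard error 1.0, limma adjusted p = 0.572), with overlap between the genotypes. Rspo1 differed by −0.96 (standard error 0.35, limma adjusted p = 0.375), and −0.86 without both libraries that stand apart, with no overlap.

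At E18.5 the largest differences were those of Sfrp4 with 0.86 (standard error 1.01, limma adjusted p = 1), Wnt3a with −0.77 (standard error 0.54, limma adjusted p = 1), Lgr6 with 0.74 (standard error 1.0, limma adjusted p = 1) and Rspo2 with −0.65 (standard error 1.10, limma adjusted p = 1). Sfrp4 had 12 and 1 reads in the Wfdc2+/+ pair and 8 and 5 in the Wfdc2GFP/GFP pair. Wnt3a had log2 RPKM of −1.65 and −1.20 in E18.5 Wfdc2+/+, −2.62 and −1.76 in E18.5 Wfdc2GFP/GFP, −2.08 and −1.07 in P1.5 Wfdc2+/+ and −2.22 and −1.89 in P1.5 Wfdc2GFP/GFP, so that both E18.5 Wfdc2GFP/GFP libraries lay below both Wfdc2+/+ libraries. Without both libraries that stand apart, the differences of Wnt3a and Lgr6 were −0.34 and 0.05.

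Without overlap between the genotypes at P1.5, 3 genes lay higher in Wfdc2GFP/GFP (Sfrp4, Rspo3 and Wnt11, against 12.8% of all genes) and 6 lower (Rspo1, Wnt4, Wnt2b, Lef1, Lgr4 and Wnt6, against 23.7%). At E18.5, 3 lay higher (Sfrp1, Sfrp2 and Lgr6, against 27.8%) and 5 lower (Wnt3a, Wnt2, Wnt7a, Wnt4 and Wnt6, against 10.3%). Wnt4 and Wnt6 were thus lower in Wfdc2GFP/GFP without overlap at both stages, as were 1.89% of all genes. Higher at both were 2.26% of all genes and none of the 35. For Wnt6 the E18.5 gap rests on mean reads of 8.5 in Wfdc2+/+ and 7 in Wfdc2GFP/GFP, so its place here supports nothing. The P1.5 gaps of Wnt6 and Sfrp4 were tied to the read filter and support nothing about the genotypes. The E18.5 differences of these ligands were small, −0.53 (standard error 0.86, limma adjusted p = 1) for Wnt4 and −0.30 (standard error 0.59, limma adjusted p = 1) for Wnt6.

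The genotype comparison at P1.5 turned on the choice of libraries. Without both libraries that stand apart, 6 of 35 genes passed, all lower in Wfdc2GFP/GFP, but 16.7% of all genes passed too, with 12.9% of all genes as lower, so the share of the 35 genes was near that of all genes. An unadjusted p under 0.05 was found for 15 of the 35 and for 40% of all genes. These 6 were Lgr6 with −3.19 (limma adjusted p = 0.0317), Fzd7 with −2.22, Fzd1 with −1.98, Wif1 with −1.81, Wnt5a with −1.70 and Sfrp2 with −1.61 (limma adjusted p = 0.0302). With all libraries the same differences ran from −1.66 for Lgr6 to 0.13 for Wnt5a and none passed. In that fit P1.5 Wfdc2+/+ is the single library replicate 2, the one with liver and oesophagus reads and 6336 RPM of mesenchymal markers, and it is assumed to vary like the other groups. The median difference of all genes in the fit was −0.53, and that of the 35 genes −0.62.

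**Figure D5:**
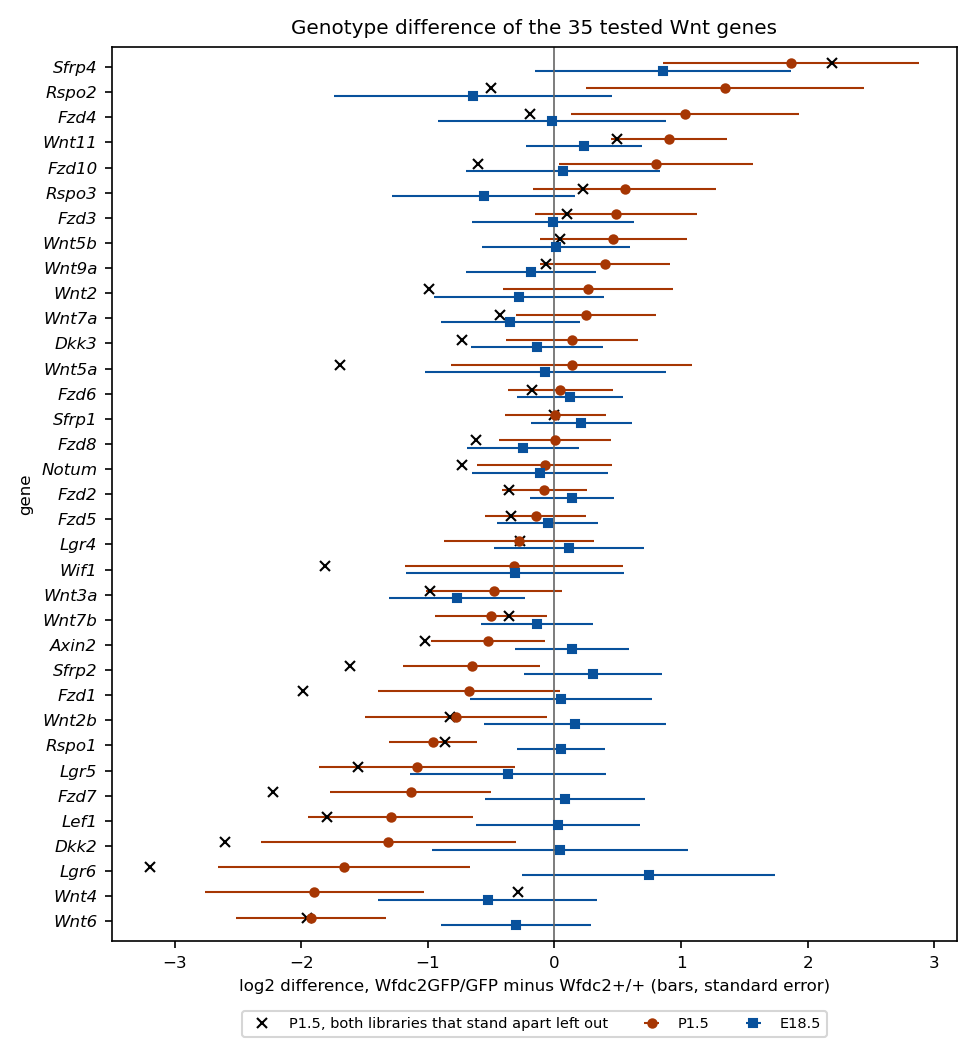
Log2 difference between Wfdc2GFP/GFP and Wfdc2+/+ for the 35 tested genes at P1.5 (circles) and E18.5 (squares), with standard errors as bars; crosses are the P1.5 values without both libraries that stand apart. At P1.5 the values run from −1.92 for Wnt6 to 1.87 for Sfrp4 with all libraries, and the crosses of Wnt5a, Wif1, Fzd1 and Lgr6 lie well to the left of the circles.

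Other genes of the pathway were taken from a list of 42 names, of which 41 were found and 39 tested. Between the stages 4 of 39 were called lower (10.3%) and none higher in limma, against 8.1% of all genes as lower. Among the 4 is Sost, whose call is tied to the read filter and supports nothing about the stages. With so few genes the share was not told apart from that of all genes. Voom passed 10, all lower, against 15.7%. After centring 2 passed as lower (Bcl9l and Kremen1, against 3.78%), and 1 (Sost) without both libraries that stand apart (against 4.63%). Sost, a secreted inhibitor of the co-receptors, had read counts of 28 and 27 in E18.5 Wfdc2+/+, 24 and 82 in E18.5 Wfdc2GFP/GFP, 0 and 19 in P1.5 Wfdc2+/+ and 0 and 1 in P1.5 Wfdc2GFP/GFP. It passed the filter through E18.5 alone, and its log2 difference of −3.63 (standard error 0.91, limma adjusted p = 0.0389) depends on the 0.9 reads entered for the libraries at 0. P1.5 Wfdc2+/+ replicate 2, with 19 reads and a log2 RPKM of −2.22, lay within the E18.5 range of −2.82 to −0.70, so the stages overlapped. Dvl3, which relays the signal from Frizzled, differed by −1.96 (standard error 0.53, limma adjusted p = 0.0442), and Bcl9l, a co-factor of β-catenin, by −1.77 (standard error 0.39, limma adjusted p = 0.0314). The stages overlapped for both through P1.5 Wfdc2+/+ replicate 2. Its log2 RPKM was 0.17 for Dvl3 (E18.5, 0.06 to 1.54) and 1.76 for Bcl9l (E18.5, 1.61 to 2.92). Kremen1, a receptor of Dkk proteins, differed by −1.27 (standard error 0.34, limma adjusted p = 0.043), with log2 RPKM of −0.34 to −0.06 at E18.5 and −2.02 to −0.86 at P1.5. Ctnnb1, which encodes β-catenin, had 9866 to 39274 reads and a difference of −0.62 (standard error 0.27, limma adjusted p = 0.116).

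Of the co-receptors and secretion genes, Lrp6 differed by −1.09 (standard error 0.37, limma adjusted p = 0.0692), Wls, the carrier of Wnt ligands, by −0.90 (standard error 0.35, limma adjusted p = 0.0929) and Porcn, which attaches their lipid, by 0.53 (standard error 0.26, limma adjusted p = 0.159). The ubiquitin ligases that remove Frizzled receptors differed by −0.94 (standard error 0.41, limma adjusted p = 0.118) for Rnf43 and −1.15 (standard error 0.42, limma adjusted p = 0.0803) for Znrf3. None of these 5 passed in limma, and Lrp6 and Znrf3 passed in voom. Between the genotypes none of the 39 passed at either stage in limma or voom, with 2 of them at an unadjusted p under 0.05 at P1.5 and 0 at E18.5. Over the 39 genes the median stage difference was −0.85 as deposited, beside −0.41 over all genes. Without overlap between the stages, 3 of the 39 lay lower at P1.5 and 0 higher, where 14.6% and 7.08% of all genes did. Whether the 39 genes moved beyond the shift of all genes was not tested.

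Likeness among the 35 genes was described by Pearson's r of log2 RPKM over the 8 libraries, which share depth and the spread of the libraries that stand apart. The genes most like Wnt2 were Wnt5a (0.935), Wif1 (0.935) and Rspo2 (0.912). Those most like Dkk2 were Axin2 (0.964), Fzd1 (0.956) and Lef1 (0.923), and those most like Lgr5 were Fzd7 (0.798), Fzd10 (0.729) and Lef1 (0.711). For Sfrp1 the values were lower, with Fzd5 (0.591), Axin2 (0.436) and Lgr4 (0.413). Within groups the 35 genes differed by a median of 0.22 (log2) between the pair of E18.5 Wfdc2+/+ libraries, 0.45 in E18.5 Wfdc2GFP/GFP, 1.0 in P1.5 Wfdc2+/+ and 0.41 in P1.5 Wfdc2GFP/GFP. Over all genes these were 0.16, 0.60, 0.84 and 0.42. In P1.5 Wfdc2+/+, 30 of the 35 genes were higher in replicate 2, most of all Rspo2 by 3.70, and Wnt4 was higher in replicate 1 (replicate 2 minus replicate 1, −3.22).

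The remaining 12 genes had a mean under 10 reads and were not tested. Fzd9 had read counts of 12 and 6 in E18.5 Wfdc2+/+, 4 and 5 in E18.5 Wfdc2GFP/GFP, 5 and 4 in P1.5 Wfdc2+/+ and 14 and 19 in P1.5 Wfdc2GFP/GFP. Wnt10b, a canonical ligand, had 1 to 6 reads at E18.5 and 2, 32, 4 and 13 at P1.5, where the 32 belong to Wfdc2+/+ replicate 2. Wnt3 had 10 to 16 reads at E18.5 and 0, 1, 4 and 3 at P1.5. Sfrp5 had 1 to 11 reads, and Dkk1, a secreted inhibitor of the co-receptors, 0 to 7. Wnt16 had 0 to 6 reads, Wnt10a and Wnt1 0 to 4, Wnt9b 0 to 3 and Dkk4 0 to 2, so these were at or near the limit of detection, taken as 3 reads, in most libraries. Wnt8a and Wnt8b had 0 reads in all 8 libraries, and 3 reads stand for 0.0806 to 0.154 RPM here. At this depth their presence was not detectable, and such limits cover counting error only.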

How the data were processed

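Total lung RNA of 8 libraries, 2 for each of 4 groups, was analysed from 1 table of the whole series. The authors trimmed reads with Trim Galore 0.4.0, aligned them to mm10 with TopHat2 2.1.1 and counted them per gene with SeqMonk. Per the file headers and values, the deposited unit is log2 RPKM, over the length of the gene span. Whether the counting used strand is not given in the sources used here. The values step in whole reads, so reads were recovered for 99.857% to 99.96% of values within 0.02 of a whole number, and a gene without reads held the value of 0.9 reads.

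The log2 RPKM values of the 4 groups were fitted in limma 3.58.1 (R 4.3.3) with a trended prior, on genes with a mean of at least 10 reads. P-values were adjusted by Benjamini-Hochberg over all genes tested, with a threshold of 0.05. Exact two-sided permutation tests and summaries used Python 3.11.15, numpy 2.4.6, pandas 2.3.3 and scipy 1.17.1, and plots matplotlib 3.10.9. The scripts were tested on simulated data. Exonic lengths came from GENCODE M21 and upstream windows from RefSeq (GRCm38.p6). Alternatives covered filters, pseudocounts, scalings, the replicate block, priors, voom on the recovered reads and libraries left out. The members and lists were chosen with earlier results of these data known. Values in every library are given for members that passed in any of 6 contrasts and for the 4 with the largest genotype difference at each stage, and the other tested members are given by their range. Of 42 listed pathway genes, Draxin was not found.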

Additional observations from a re-analysis of the deposited data

How the results depend on the processing

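Counts are of the 35 tested genes past an adjusted p of 0.05. Averaged over genotypes, the stage count of 6 became 1 with a filter of 0.05 RPKM (where Wnt6 was not tested), 2 without a filter, 2 with a pseudocount of 0.1 or 1 RPKM and 1 with a prior without a trend. Counts of all genes fell too, from 795 higher and 1278 lower of 15783. They were 403 and 400 of 15627 with that filter and 208 and 220 of 25965 without a filter. With a pseudocount of 0.1 RPKM they were 435 and 416, with 1 RPKM 164 and 128, and without a trend 266 and 374. The stage count was 2 with a replicate block (Fzd10 and Fzd7, all genes 4.97%) and 10 with a replicate block within stage (all genes 34.3%). For libraries left out, the shares of all genes are given above. With each library left out in turn it ran from 0 to 17, the 17 without P1.5 Wfdc2+/+ replicate 2 (where 47.8% of all genes passed), 7 without E18.5 Wfdc2GFP/GFP replicate 2, 3 without P1.5 Wfdc2+/+ replicate 1 and 0 without any other library. In Wfdc2+/+ the count of 0 became 1 without a filter and 0 to 11 with a library left out, the 11 without P1.5 Wfdc2+/+ replicate 2. In Wfdc2GFP/GFP the count of 1 (all 15783 genes, 497 higher and 1085 lower) became 3 at an adjusted p under 0.1 (4565 genes). It was 0 without a filter (122 and 227 of 25965), 0 with a pseudocount of 1 RPKM (82 and 73) and 0 without a trend (209 and 562). With median centring it was 2 (957 and 496), as with quantile normalization (462 and 353), and 5 with its 4 libraries alone (835 and 2513). The replicate block gave 0 (238 and 356) and the block within stage 5 (1245 and 3434). The count also moved with libraries left out, as did that of all genes, where 1 library remains in a group. For genotype at P1.5 the count of 0 became 0 to 1 with a library left out (Wnt4, without P1.5 Wfdc2+/+ replicate 2) and 6 without both libraries that stand apart (16.7% of all genes), an alternative chosen after seeing the data. The counts for genotype at E18.5 and for the difference between the stage changes were 0 in every alternative run. The E18.5 genotype difference of Sfrp4 ran from −0.86 to 2.58, the lowest without E18.5 Wfdc2+/+ replicate 2 and the highest without E18.5 Wfdc2+/+ replicate 1. The cause was not tested. Same-numbered libraries deviated with correlations from −0.276 to 0.257, and within a stage with 0.257 at E18.5 and 0.1825 at P1.5. The number coincides with sex, which the main fit does not include. The paper calls the Wfdc2+/+ samples littermate controls, but no source used here ties a number to a litter. The block was therefore kept as an alternative, and with it only the stage calls of Fzd10 and Fzd7 remained. The stage calls rest on 4 libraries a side, and few reads limit Wnt6, Sfrp4 and the 12 untested genes.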
